A study of Mus musculus with 8 samples.

Results

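The nuclear pore and transport genes were described in pools of mouse embryos with and without Dux. Members were all genes of the deposited gene table whose symbol begins with Nup and a digit, Kpna, Kpnb, Xpo, Ipo and a digit, or Tnpo, or is Ran, Ranbp1, Ranbp2, Rangap1, Rcc1 or Cse1l. The choice read symbols only but was made with earlier results of these data known, and 47 of 13101 genes met it. RNA-seq was made from polyA RNA of 4 wild-type (WT) pools and 4 pools with a knockout of Dux (Dux KO), all at the 2-cell stage and on the C57BL/6 background. Each pool held 12 to 18 embryos from timed matings, and no treatment is named. The DUX protein, a transcription factor with a pair of homeodomains, is known to switch on genes of the 2-cell stage. Whether pools came from separate parents is not stated in the labels, so the p-values cover only the variation among these pools, which may be technical. It is not stated either whether the Dux KO pools came from 1 mutant line.

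Nuclear pores are large protein channels through the nuclear envelope, built from nucleoporins that form rings, a central channel with phenylalanine-glycine repeats, filaments on the cytoplasmic side and a basket on the nuclear side. Proteins with a nuclear localization signal are carried inward by importins, either directly by a member of the importin beta family or through an importin alpha adaptor. Exportins carry cargo outward. Ran, a small GTPase, sets the direction, since its exchange factor Rcc1 sits on chromatin and its activating protein Rangap1 in the cytoplasm. The oocyte and the early embryo use a particular set of importin alphas, among them Kpna7, which is known from mouse oocytes and zygotes.

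Across the members, the knockout pools held less mRNA of many nucleoporins and transport receptors and more of a few. Of 47 members tested, 15 were lower and 2 higher in Dux KO (limma on log2(FPKM + 1), Benjamini-Hochberg adjusted p under 0.05 over 12434 genes). FPKM scales fragments to transcript length and library size, so levels of different genes can be set side by side. Summed over the gene table, FPKM was 434070 to 488076 in the WT pools and lower in every knockout pool, at 377779 to 425287. The part of this difference in the members' levels was not tested, apart from the other scalings given below. The 15 lower members are 31.9% of the members, where 18.1% of all genes tested were lower, and the 2 higher members are 4.26%, where 15.5% of all genes were higher. Members were more abundant than most genes, with a median level of 11.7 FPKM against 5.42 FPKM, and abundant genes were lower more often. Among genes that averaged 5 FPKM or more, 29.1% were lower and 16.0% higher, and of the 36 members at that level 16 were lower (44.4%) and 2 higher. The median log2 fold change was -0.42 over the members and -0.02 over all genes tested. For genes that averaged 5 FPKM or more these medians were -0.44 and -0.18.

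The 4 and 4 pools did not overlap for 13 members that were lower and 2 that were higher in Dux KO, where 18.1% and 15.0% of all genes tested did not overlap in those directions. Of the 15 members called lower, Nup62cl, Nup155 and Nup93 overlapped between the groups. Nup133 did not overlap and was not called. In embryo pools, fewer cells that express a gene and less of its RNA per cell cannot be told apart.

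**Figure D1:**
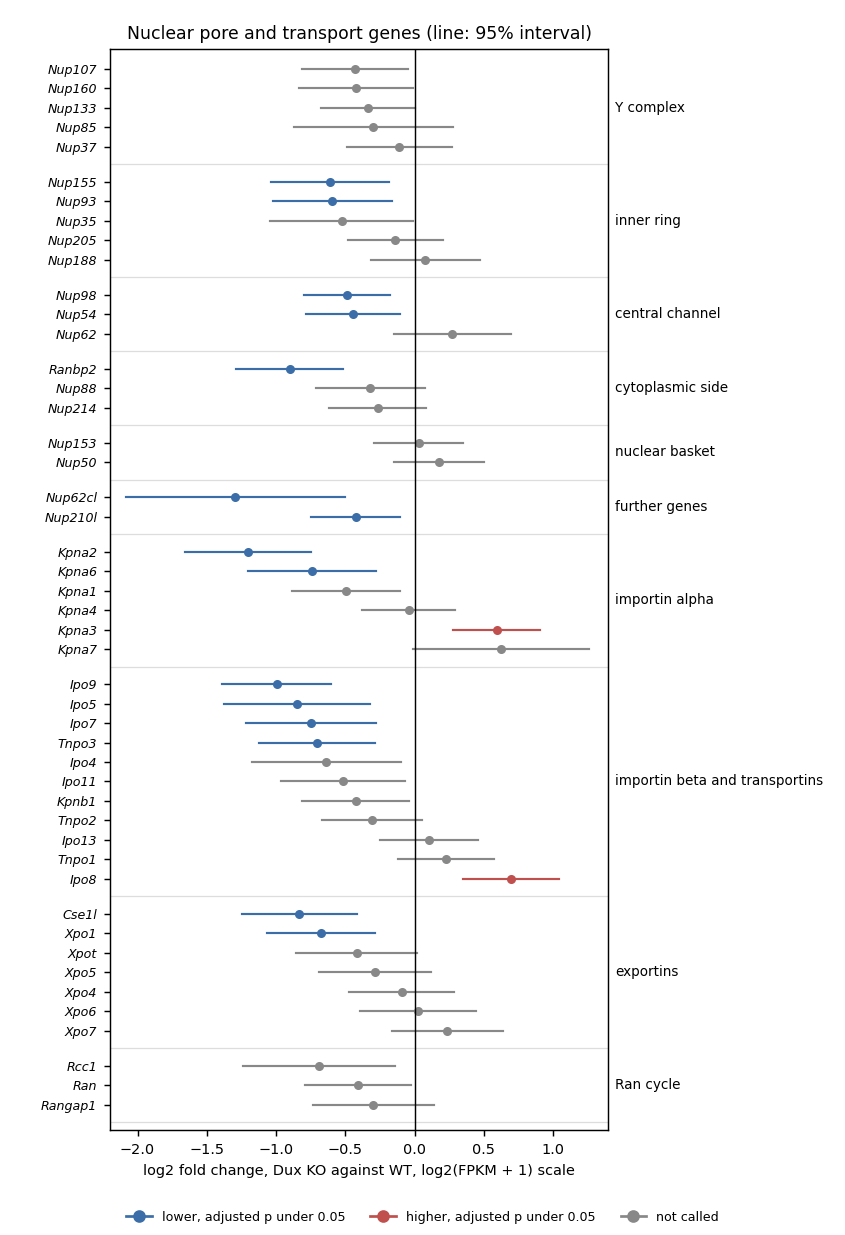
Log2 fold change of each of the 47 members, Dux KO against WT, on the log2(FPKM + 1) scale (x axis), grouped by role; points are limma estimates, lines their 95% intervals (4 and 4 pools), and colours the call. The 15 members called lower run from Nup62cl at -1.30 to Nup210l at -0.43, and Kpna3 and Ipo8 stand to the right of 0.

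Pools held 12343369 to 14548526 reads on genes, recovered from the steps of the FPKM values, and single members had 61 to 12603 reads per pool. All 10 oocyte and 2-cell markers looked up were present, with a summed level of 5056 to 6172 FPKM in the WT pools and 3726 to 4463 FPKM in the knockouts, most of it Dppa3. Markers of cumulus and granulosa cells were low, with 3 of 9 in the table and sums of 1.33 to 8.95 FPKM in the WT pools and 5.24 to 55.3 FPKM in the knockouts. The highest of these sums was in Dux KO replicate 2, where Hsd3b1 alone stood at 50.5 FPKM. Of 6 oviduct markers 3 were in the table, summing to 129.8 to 149.8 FPKM in the WT pools and 96.8 to 138 FPKM in the knockouts, most of it Epcam. The others, Krt18 and Ovgp1, stood at 13.3 and 11.7 FPKM in Dux KO replicate 1 and at 9.60 and 22.0 FPKM in replicate 2, against 1.699 to 4.71 and 1.74 to 11.5 FPKM in the WT pools. The part of other cells in the members' levels was not tested. No marker of blood or sperm was among the genes used here. Dux itself was not analysed here.

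Importin alphas changed in opposite directions within their own family. Kpna2 and Kpna6 fell, Kpna3 rose, and Kpna1, Kpna4 and Kpna7 did not pass. Kpna2, an adaptor abundant in dividing cells, stood at 27.8, 29.4, 44.7 and 35.2 FPKM in WT replicates 1 to 4 and at 14.6, 9.67, 15.2 and 18.1 FPKM in the 4 Dux KO pools, also given by replicate number. Every Dux KO pool lay below every WT pool. The mean of Kpna2 fell from 34.3 ± 7.64 to 14.4 ± 3.49 FPKM (SD, n = 4), to 0.42 of WT, and limma gave a log2 fold change of -1.20 (95% interval -1.66 to -0.75) at an adjusted p of 0.00360. This gene lies on chromosome 11 at 106988629 to 106999541 (GRCm38), and GENCODE also lists a pseudogene of it, so that some reads may have been split.

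Kpna3, an adaptor of the same fold, was the most abundant importin alpha and the most abundant member by its mean over all pools. Its levels were 116, 117, 93.4 and 101 FPKM in the WT pools and 154, 186, 159 and 147 FPKM in the knockouts. All 4 knockout pools were above all WT pools, and limma gave a log2 fold change of 0.59 (95% interval 0.28 to 0.91) at an adjusted p of 0.0121. Kpna6 stood at 5.42, 6.19, 7.44 and 8.94 FPKM in the WT pools and at 3.03, 2.64, 4.88 and 4.74 FPKM in the knockouts, again without overlap (limma log2 fold change -0.74, adjusted p = 0.0216). Its call was lost when WT replicate 4, Dux KO replicate 1 or Dux KO replicate 2 was left out.

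Kpna7, the oocyte importin alpha, stood at 10.9, 17.5, 12.8 and 7.92 FPKM in the WT pools and at 23.2, 26.6, 19.4 and 10.2 FPKM in the knockouts. In 3 of 4 knockout pools it was above all WT pools, while Dux KO replicate 4 lay within the WT range. Its mean was 12.3 ± 4.02 FPKM in the WT pools and 19.9 ± 7.08 FPKM in the knockouts, and the difference did not pass (limma log2 fold change 0.62, 95% interval -0.01 to 1.26, adjusted p = 0.113). It did pass without Dux KO replicate 4 (limma log2 fold change 0.90, adjusted p = 0.0205). DESeq2 on recovered reads also called it (adjusted p = 0.0411), while edgeR did not. Kpna7 was called higher in only 4 of 20 alternatives, and the authors' p-values were not among them. The oocyte growth factor Bmp15 stood at 269.6, 426, 219.6 and 218 FPKM in the knockouts, by replicate number, and at 72.5 to 139 FPKM in WT. Gdf9 and Oog1, also oocyte transcripts, were also higher in every knockout pool. Gdf9 stood at 60.7 to 73.8 FPKM in the WT pools and 75.8 to 106 FPKM in the knockouts, and Oog1 at 12.5 to 15.6 and 17.6 to 22.4 FPKM. Nlrp5, a maternal-effect gene, overlapped, at 11.8 to 19.97 and 10.9 to 12.9 FPKM. Dppa3, a maternal factor and the most abundant of these markers, was lower in every knockout pool, at 4576 to 5665 FPKM in the WT pools and 3158 to 3747 FPKM in the knockouts. Zp3, a gene of the egg coat, was lower too, at 169.99 to 217 FPKM in the WT pools and 63.5 to 110.4 FPKM in the knockouts. The part of left-over oocyte RNA in the level of Kpna7 was not tested. Kpna7 (chromosome 5 at 144983519 to 145084030) shares exon bases with Arpc1a on the other strand. Arpc1a, a subunit of the actin-nucleating Arp complex, stood at 98.4 ± 3.13 FPKM in the WT pools and 62.2 ± 13.6 FPKM in the knockouts. The strand setting of the counting is not given, so the reads of both cannot be told apart in the shared part.

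The remaining importin alphas differed less between groups. Kpna1, second in abundance of the family, was at 38.9, 34.2, 51.3 and 42.9 FPKM in the WT pools and at 31.7, 23.1, 27.2 and 35.9 FPKM in the knockouts. Dux KO replicate 4 lay within the WT range, and the gene just missed the threshold (limma log2 fold change -0.49, adjusted p = 0.0510). Kpna1 was called lower in 7 of 20 alternatives, among them edgeR, DESeq2 and the authors' p-values. Kpna4 was low and near equal, at 4.20, 3.78, 4.44 and 5.53 FPKM in the WT pools and 4.61, 4.32, 4.11 and 4.13 FPKM in the knockouts (limma log2 fold change -0.04, 95% interval -0.38 to 0.30, adjusted p = 0.841).

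**Figure D2:**
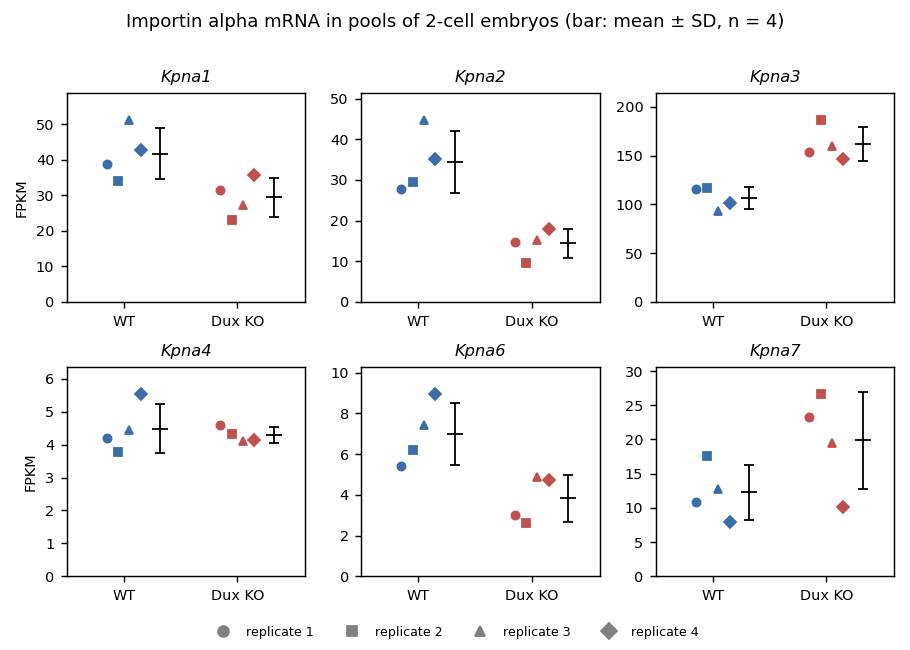
FPKM (y axis, from 0) of the 6 importin alpha genes in each WT (blue) and Dux KO (red) pool, with marker shapes for replicates and a bar for mean ± SD (n = 4). Kpna2 and Kpna6 are lower and Kpna3 higher in Dux KO without overlap, while Kpna7 overlaps through Dux KO replicate 4 at 10.2 FPKM.

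The make-up of importin alpha mRNA differed between groups, while its sum was higher in every knockout pool than in every WT pool. The summed level was 202 to 214 FPKM in the WT pools and 219.6 to 253 FPKM in the knockouts. Kpna3 made up 43.6 to 57.1% of that sum in WT and 66.6 to 73.8% in Dux KO. The share of Kpna2 was 13.7 to 20.9% in the WT pools and 3.83 to 8.23% in the knockouts. Neither share overlapped between groups. Kpna7 made up 3.92 to 8.43% in the WT pools and 4.64 to 10.5% in the knockouts, and these ranges overlapped. For each fragment of Kpna2 per kilobase there were 2.09 to 4.17 of Kpna3 in WT and 8.11 to 19.3 in Dux KO. The ratio of Kpna7 to Kpna2 was 0.225 to 0.595 in the WT pools and 0.564 to 2.75 in the knockouts, and these ranges overlapped. These shares and ratios are descriptions and were not tested. Kpna2 and Kpna3 were already known to differ here, while Kpna7 did not pass.

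**Figure D3:**
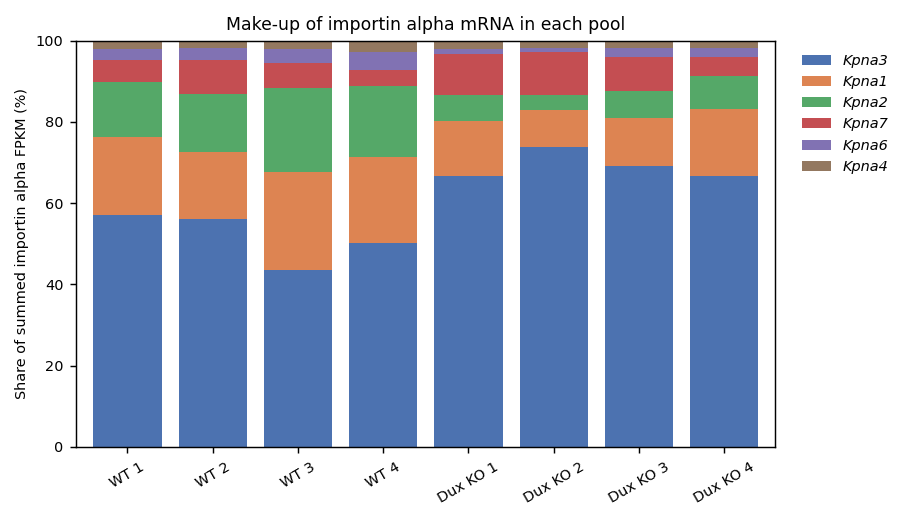
Share of each importin alpha in the summed FPKM of the family (y axis, percent) for each of the 8 pools (x axis). The Kpna3 segment is at most 57.1% in WT and at least 66.6% in Dux KO, and the Kpna2 segment is at most 8.23% in Dux KO.

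The promoters of 4 transport genes are shown because these genes moved to different sides: Kpna2 and Ipo9 were lower, Ipo8 was higher, and Kpna7 was the oocyte form. Sequences are RefSeq promoters of GRCm38.p6, 5′ to 3′ on the gene's strand, from 250 bases before to 50 after the start. Capitals mark a CCAAT box (CCAAT), a GC box (GGGCGG) or a TATA box (TATAAA) on either strand. Capitals of a box on the opposite strand read ATTGG or CCGCCC, and the Ipo8 window holds none. The window of Kpna2 is chr11:106999476-106999775, that of Kpna7 chr5:145009587-145009886, that of Ipo8 chr6:148831418-148831717 and that of Ipo9 chr1:135430442-135430741, all on the minus strand. The Kpna7 window lies inside the span that GENCODE gives the gene. Ipo9 has a further start nearby that is not shown.
Kpna2: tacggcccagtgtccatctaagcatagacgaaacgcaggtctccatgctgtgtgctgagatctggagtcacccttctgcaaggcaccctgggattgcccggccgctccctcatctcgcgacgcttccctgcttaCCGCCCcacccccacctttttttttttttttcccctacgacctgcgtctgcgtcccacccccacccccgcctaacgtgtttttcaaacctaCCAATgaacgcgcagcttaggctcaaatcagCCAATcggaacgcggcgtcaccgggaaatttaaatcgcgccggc
Kpna7: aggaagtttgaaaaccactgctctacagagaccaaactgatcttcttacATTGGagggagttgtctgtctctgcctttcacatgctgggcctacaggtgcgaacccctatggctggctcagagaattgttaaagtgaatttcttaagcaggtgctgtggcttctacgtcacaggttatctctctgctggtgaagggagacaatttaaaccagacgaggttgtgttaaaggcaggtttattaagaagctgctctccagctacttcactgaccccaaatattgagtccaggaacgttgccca
Ipo8: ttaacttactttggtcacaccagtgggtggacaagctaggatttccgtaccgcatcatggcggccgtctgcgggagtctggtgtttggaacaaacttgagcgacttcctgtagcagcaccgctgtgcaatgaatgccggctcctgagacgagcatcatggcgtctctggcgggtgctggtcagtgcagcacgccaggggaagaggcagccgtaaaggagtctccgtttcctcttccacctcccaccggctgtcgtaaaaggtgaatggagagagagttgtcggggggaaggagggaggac
Ipo9: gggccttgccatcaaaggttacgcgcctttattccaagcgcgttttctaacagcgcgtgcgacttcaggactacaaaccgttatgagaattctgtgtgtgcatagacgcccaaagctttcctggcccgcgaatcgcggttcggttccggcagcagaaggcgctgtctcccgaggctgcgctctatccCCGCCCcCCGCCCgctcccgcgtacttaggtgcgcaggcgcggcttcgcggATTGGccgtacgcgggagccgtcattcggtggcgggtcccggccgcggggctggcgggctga

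The Kpna7 promoter held 4 CpG sites, fewer than those of Kpna2 (24), Ipo8 (17) and Ipo9 (38) and below the median of 28 over the 45 member promoters, which cover 38 members. The median of all 32851 promoters in the table was 7. A CCAAT box was in 51.1% of member promoters and in 37.4% of all promoters, a GC box in 64.4% and 35.7%, and a TATA box in 11.1% and 13.6%. The core of the DUX motif, searched as GATTNAATC, was in 0 of 45 member promoters and in 0.268% of all promoters. It reads the same on both strands, and no search went beyond this window. A match describes letters only, and no match says nothing of the factor.

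Importins of the beta family and transportins were lower in 4 of 11 cases (36.4%) and higher in 1 (9.09%). Of all genes tested 18.1% were lower and 15.5% higher, and of those that averaged 5 FPKM or more 29.1% and 16.0%. Ipo9, an importer of core histones, stood at 9.88, 9.59, 6.40 and 8.21 FPKM in the WT pools and at 3.47, 3.69, 4.78 and 3.09 FPKM in the knockouts. No knockout pool reached a WT pool, and the mean fell to 0.441 of WT (limma log2 fold change -0.997, 95% interval -1.39 to -0.60, adjusted p = 0.00422). Ipo5, an importer of ribosomal proteins among other cargo, stood at 27.4, 30.8, 49.2 and 49.1 FPKM in the WT pools and at 21.1, 13.7, 23.97 and 25.6 FPKM in the knockouts. WT replicates 3 and 4 were well above WT replicates 1 and 2, and the call (limma log2 fold change -0.85, adjusted p = 0.0216) was lost without either of them (limma adjusted p = 0.0549 and 0.0640). Ipo7, which carries ribosomal proteins and linker histone, showed the same split, at 11.8, 12.1, 18.1 and 20.05 FPKM in the WT pools and 8.58, 6.14, 9.67 and 10.6 FPKM in the knockouts (limma log2 fold change -0.75, adjusted p = 0.0230). The call was lost when any of WT replicates 3 and 4 and Dux KO replicates 1 and 2 was left out.

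Tnpo3, the importer of serine- and arginine-rich splicing factors, was also lower without overlap, at 10.5 ± 2.93 FPKM in the WT pools and 5.88 ± 0.480 FPKM in the knockouts (limma log2 fold change -0.71, adjusted p = 0.0184). The call was lost when WT replicate 4 or Dux KO replicate 1 was left out. Ipo8, a relative of Ipo7, went the other way. Its levels were 7.49, 7.95, 7.88 and 6.55 FPKM in the WT pools and 11.8, 16.1, 11.0 and 12.3 FPKM in the knockouts. The groups were well apart, and limma gave a log2 fold change of 0.70 (95% interval 0.35 to 1.04) at an adjusted p of 0.00949. Ipo8 shares exon bases with 2610017A05Rik and Tnpo3 with Irf5, each on the other strand, so some of their reads are uncertain. The ratio of Ipo8 to Ipo7 ranged from 0.327 to 0.655 in the WT pools and from 1.14 to 2.62 in the knockouts. The order of these relatives was thus turned in all 4 knockout pools. This ratio describes genes already called in opposite directions and was not tested.

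Kpnb1, the partner of the importin alphas, did not pass, at 13.2 ± 1.85 FPKM in the WT pools and 9.65 ± 2.25 FPKM in the knockouts (limma log2 fold change -0.43, adjusted p = 0.0818). Tnpo1, which carries certain RNA-binding proteins, stood at 12.1 ± 1.77 and 14.3 ± 1.90 FPKM (limma adjusted p = 0.280), and Ipo11 at 21.7 ± 6.13 and 14.6 ± 2.11 FPKM (limma adjusted p = 0.0689). Ipo4, an importer of histones, was at 5.74 ± 1.77 and 3.36 ± 1.16 FPKM (limma adjusted p = 0.0634). Ipo11 was called lower in 5 of 20 alternatives and Ipo4 in 5 of 19. DESeq2 on recovered reads called both, and edgeR only Ipo11. Tnpo2 and Ipo13 were the least abundant receptors, at means of 1.53 and 1.58 FPKM in WT, and did not pass either. Tnpo3, Ipo4 and Kpnb1, and below Nup98, Nup155 and Nup133, were given values after these had been seen.

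**Figure D4:**
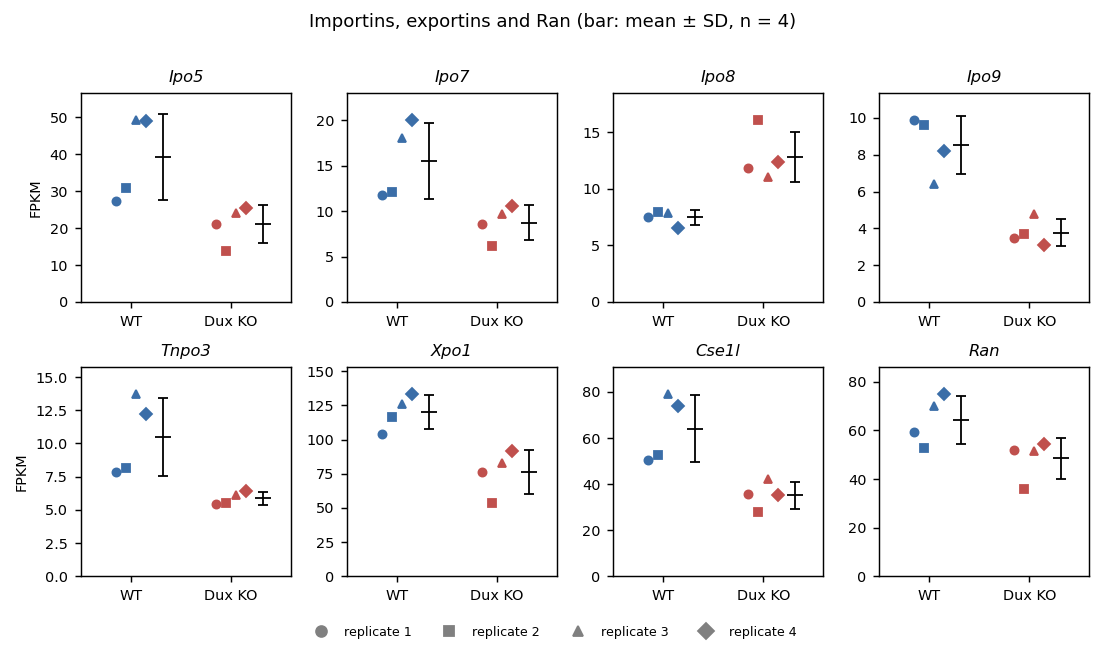
FPKM (y axis, from 0) of importins, exportins and Ran in each WT (blue) and Dux KO (red) pool, with marker shapes for replicates and a bar for mean ± SD (n = 4). Ipo8 is higher in Dux KO; Ipo5, Ipo7, Ipo9, Tnpo3, Xpo1 and Cse1l are lower without overlap, and Ran overlaps.

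Of 7 exportins 2 fell (28.6%), and these were the most abundant. Of all genes tested 18.1% were lower, and of those that averaged 5 FPKM or more 29.1%. Xpo1, the exporter of proteins with a leucine-rich export signal, stood at 104, 117, 126 and 133 FPKM in the WT pools and at 75.99, 53.7, 82.9 and 91.3 FPKM in the knockouts. Each knockout pool was below the lowest WT pool (limma log2 fold change -0.67, 95% interval -1.06 to -0.28, adjusted p = 0.0165). With quantile normalization Xpo1 did not pass (log2 fold change -0.41, adjusted p = 0.0735). Cse1l, which returns importin alphas to the cytoplasm, stood at 50.6, 52.5, 78.95 and 74.1 FPKM in the WT pools and at 35.8, 27.7, 41.99 and 35.4 FPKM in the knockouts (limma log2 fold change -0.83, adjusted p = 0.00936). Again the groups were apart, although WT replicates 3 and 4 exceeded replicates 1 and 2 by a wide margin. The summed level of exportins was 203 ± 29.1 FPKM in the WT pools and 128 ± 22.2 FPKM in the knockouts.

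The other exportins were low and did not pass. Xpo5, which carries microRNA precursors, stood at 5.93 ± 0.938 FPKM in the WT pools and 4.73 ± 1.19 FPKM in the knockouts, and Xpo4 at 3.98 ± 0.884 and 3.63 ± 0.426 FPKM. The tRNA exporter Xpot and the exporters Xpo6 and Xpo7 had log2 fold changes of -0.42, 0.03 and 0.24. Xpo7 shares exon bases with Npm2, an oocyte histone chaperone on the same strand at 225 ± 13.5 and 237 ± 13.8 FPKM, so that its low level is uncertain.

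None of the 3 genes of the Ran cycle passed in limma, although 2 were lower at an unadjusted p under 0.05 and edgeR and DESeq2 each called 1. Ran stood at 59.4, 52.9, 70.2 and 74.9 FPKM in the WT pools and at 52.1, 35.9, 51.3 and 54.5 FPKM in the knockouts. Only Dux KO replicate 4 reached into the WT range, and the difference did not pass (limma log2 fold change -0.41, 95% interval -0.79 to -0.02, adjusted p = 0.0917). Rcc1 was at 8.13 ± 3.05 FPKM in the WT pools and 4.52 ± 1.13 FPKM in the knockouts (limma log2 fold change -0.69, adjusted p = 0.0534). It passed without WT replicate 1 or 2 (limma adjusted p = 0.0277 and 0.0494) and by edgeR and DESeq2 on recovered reads (adjusted p = 0.0310 and 0.0149). Rcc1 shares exon bases with Snhg3, a noncoding host transcript on the same strand. Rangap1 was at 9.52 ± 2.24 and 7.53 ± 1.59 FPKM (limma log2 fold change -0.30, adjusted p = 0.258). Ranbp1 was not analysed here.

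Among 20 nucleoporin genes and paralogues, 7 fell (35%) and 0 rose, beside 18.1% lower and 15.5% higher of all genes tested. The paralogues, Nup62cl and Nup210l, both fell, so the share was smaller among the other pore genes. Of genes that averaged 5 FPKM or more, 29.1% were lower. The 7 lay in the inner ring (2 of 5), the central channel (2 of 3), the cytoplasmic side (1 of 3) and a pair of paralogues. By edgeR and by DESeq2, 7 of the 20 were lower and 0 higher. Those tools called 17.7 and 19.5% of all genes lower and 16.3 and 18.9% higher. At an unadjusted limma p under 0.05, 10 of the 20 were lower and 0 higher. How many of all genes pass at that unadjusted p was not counted, here or for the Ran cycle and the Y complex. Ranbp2, the giant nucleoporin of the cytoplasmic filaments that also acts as a SUMO ligase, fell most of the core pore genes. It stood at 30.3, 34.3, 38.9 and 40.4 FPKM in the WT pools and at 15.3, 15.7, 21.9 and 23.2 FPKM in the knockouts, without overlap (limma log2 fold change -0.90, 95% interval -1.29 to -0.51, adjusted p = 0.00552). GENCODE lists several pseudogenes of Ranbp2, with which it may share reads. Nup214 and Nup88, which anchor the filaments, did not pass, at 24.5 ± 1.80 and 20.4 ± 3.90 FPKM and at 12.3 ± 3.09 and 9.54 ± 1.01 FPKM.

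In the inner ring, Nup155 fell from 7.38 ± 1.63 to 4.48 ± 1.03 FPKM and Nup93 from 14.5 ± 3.90 to 8.99 ± 0.674 FPKM (limma log2 fold changes -0.61 and -0.59, adjusted p = 0.0334 and 0.0373). Nup155 was called in 14 and Nup93 in 10 of 20 alternatives. Nup35 was at 31.5 ± 8.19 and 21.5 ± 5.54 FPKM and did not pass, nor did Nup205 and Nup188, whose log2 fold changes were -0.14 and 0.08. In the central channel, Nup98, with its phenylalanine-glycine repeats, fell from 16.2 ± 2.07 to 11.2 ± 0.175 FPKM (limma log2 fold change -0.49, adjusted p = 0.0240), a call kept in 15 of 20 alternatives and lost without WT replicate 3 or 4 or Dux KO replicate 1. Nup54 fell from 27.1 ± 2.46 to 19.8 ± 3.01 FPKM (limma log2 fold change -0.44, adjusted p = 0.0455), a call kept in 9 of 20 alternatives. Nup62, also of the central channel, stood at 22.6 ± 0.821 FPKM in the WT pools and 28.3 ± 7.66 FPKM in the knockouts (limma log2 fold change 0.27, adjusted p = 0.283).

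None of the 5 members of the Y complex, the outer scaffold of the pore, passed in limma (no covariate), edgeR or DESeq2 with all pools. Without Dux KO replicates 3 and 4, Nup107 (limma adjusted p = 0.0409) and Nup160 passed. All 5 log2 fold changes were below 0, and 2 had an unadjusted limma p under 0.05. Nup107 was at 32.8 ± 5.73 and 24.1 ± 4.14 FPKM (limma adjusted p = 0.0765), and Nup37 at 29.8 ± 3.26 and 27.9 ± 5.41 FPKM (limma adjusted p = 0.631). Nup133 was at 3.60 ± 0.437 and 2.65 ± 0.409 FPKM (limma adjusted p = 0.112). Nup160 and Nup85 had log2 fold changes of -0.42 and -0.30. Neither basket gene passed, with Nup153 at 8.91 ± 1.12 and 9.07 ± 0.502 FPKM and Nup50 at 21.1 ± 2.55 and 23.9 ± 2.71 FPKM. The 95% interval of the log2 fold change was -0.29 to 0.35 for Nup153 and -0.15 to 0.50 for Nup50. Nup210, Nup43 and Nup58 were not analysed here. Nup42 is listed under its older symbol Nupl2, which the rule does not take, and did not pass, at 2.96 ± 0.675 and 2.47 ± 0.297 FPKM (limma log2 fold change -0.18, adjusted p = 0.423).

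Nup62cl and Nup210l, paralogues of Nup62 and Nup210, were both called lower. Nup62cl (chromosome X at 140006805 to 140062712) had the largest fold change of all members, at 35.2, 46.6, 9.96 and 23.4 FPKM in the WT pools and 10.9, 10.6, 9.18 and 8.03 FPKM in the knockouts. The knockout pools lay close together while the WT pools spread widely, and WT replicate 3 lay within the Dux KO range. In limma its log2 fold change was -1.30 (95% interval -2.09 to -0.50, adjusted p = 0.0201), and without WT replicate 1 the call was lost (limma adjusted p = 0.0511). Nup210l, best known from testis, was at 4.17 ± 0.459 and 2.85 ± 0.235 FPKM without overlap (limma log2 fold change -0.43, adjusted p = 0.0449). It was called in 7 of 19 alternatives.

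Certain pools stood at the ends of their group for many members. WT replicates 3 and 4 held the highest WT value for 21 and 18 of the 47 members, and WT replicates 1 and 2 the lowest for 19 each. In Dux KO, replicate 2 was the lowest pool for 24 members and replicate 4 the highest for 23. Of all 12434 genes tested, WT replicate 3 was the highest WT pool for 3594, and Dux KO replicate 2 was the lowest knockout pool for 4288. Dux KO replicate 2 was also the pool with the most Hsd3b1 and Bmp15, which is given as a value only.

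**Figure D5:**
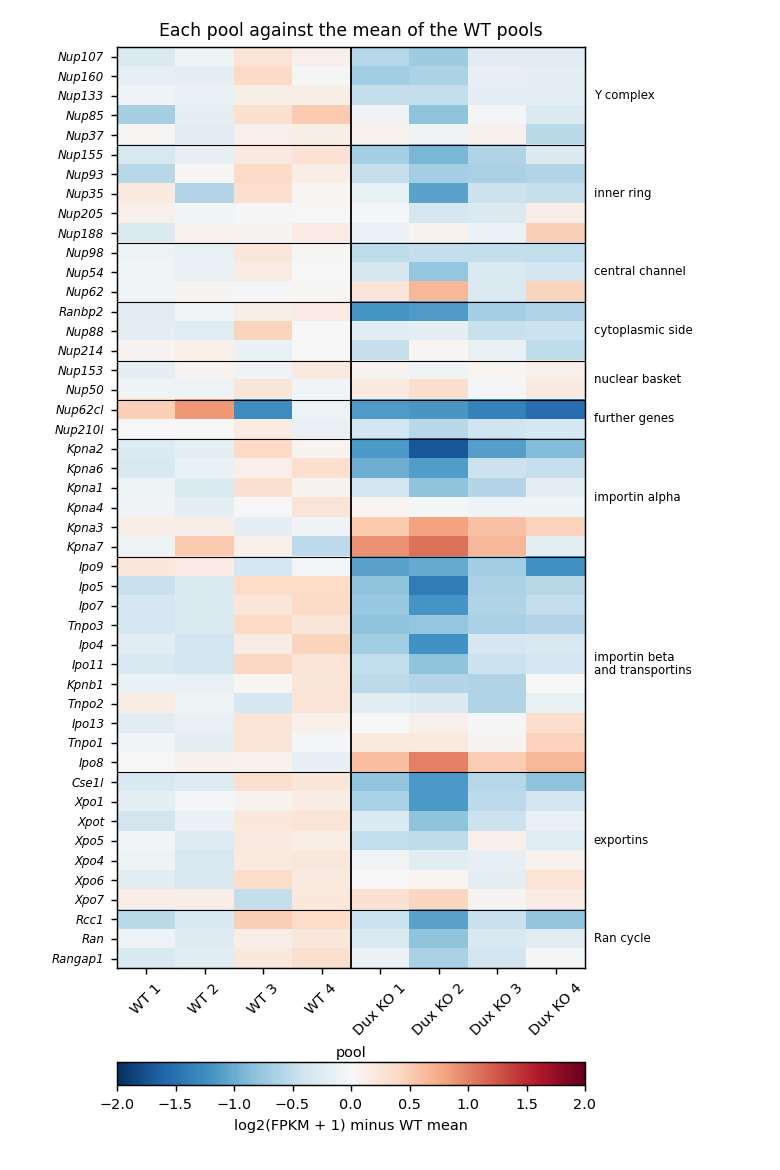
Level of each member (rows, by role) in each pool (columns) as log2(FPKM + 1) minus the mean of the WT pools; blue is lower and red higher. WT replicates 3 and 4 are redder than 1 and 2 in most rows, Dux KO replicate 2 is the bluest pool for many, and Kpna3 and Ipo8 are red in all Dux KO pools, Kpna7 in all but replicate 4.

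Single pools decided many calls. The 15 lower members became 8 and 6 when WT replicate 3 or 4 was left out, and 7 and 9 when Dux KO replicate 1 or 2 was left out. In these 4 fits 17.0, 12.8, 14.9 and 19.1% of the members were lower, beside 14.3, 10.8, 11.5 and 12.9% of all genes, so that the members came nearer to the background than with all pools. They numbered 2, Kpna2 and Ipo9, when Dux KO replicates 1 and 2 were both left out, and 13 without Dux KO replicates 3 and 4. Over all genes, leaving out the former pair gave 447 lower calls (3.62%, beside 4.26% of the members), and leaving out the latter pair 2102 (16.9%, beside 27.7%). Kpna2 and Ipo9 were called lower in each of the 20 alternatives run. Kpna3 and Ipo8 were called higher in 19 of 20, the exception being the fit without Dux KO replicates 1 and 2 (adjusted p = 0.0716 and 0.0801). Ranbp2 and Cse1l were likewise lost there alone (adjusted p = 0.0568 and 0.0794). The median log2 fold change of the members stayed between -0.50 and -0.30.

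Pore and transport genes that the rule does not take were read from a further list of 49 symbols, of which 45 were tested. Of these, 13 were lower and 2 higher, 28.9% and 4.44%, beside 18.1% and 15.5% of all genes, with a median log2 fold change of -0.29. With quantile normalization the split was 8 lower and 3 higher, 17.8% and 6.67%, beside 15.3% and 14.9% of all genes. Without WT replicate 4, Dux KO replicate 1 or Dux KO replicate 2 the 13 became 7, 6 and 8, or 15.6, 13.3 and 17.8% of the list beside 10.8, 11.5 and 12.9% of all genes. Snupn, the adaptor that imports spliceosomal small nuclear ribonucleoproteins, was very abundant. It stood at 620.3, 519, 659 and 754 FPKM in the WT pools and at 303, 196, 346 and 332 FPKM in the knockouts, with every knockout pool below every WT pool (limma log2 fold change -1.13, adjusted p = 0.00393). Nxf1, of the mRNA export receptor, fell from 53.9 ± 6.96 to 27.6 ± 6.24 FPKM (limma log2 fold change -0.96, adjusted p = 0.00458). Nxt1, of the same receptor, fell from 208 ± 35.7 to 128 ± 18.5 FPKM (limma log2 fold change -0.70, adjusted p = 0.0123). Nxt2, also on the list, was near equal, at 23.2 ± 0.981 and 23.1 ± 2.06 FPKM (limma adjusted p = 0.973). Ddx19a, an RNA helicase of mRNA export, rose from 5.41 ± 1.03 to 7.998 ± 1.05 FPKM (limma log2 fold change 0.50, adjusted p = 0.0425). The pore genes Tpr, Seh1l, Sec13, Aaas, Ndc1 and Pom121 did not pass.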

How the data were processed

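RNA-seq of 8 pools of 2-cell embryos was used, 4 WT and 4 Dux KO, grouped by the sample titles. The authors deposited FPKM per gene, together with a mean signal per gene (counts divided by size factors, an inference from the values), log2 fold changes, and p-values after Benjamini-Hochberg adjustment. The deposited repeat table holds a signal of fragments scaled to library size and was used only to check the steps between libraries. Trimmomatic 0.32, STAR 2.6.1a, SAMtools 1.7 and GRCm38 (mm10) were used, per the submitters' processing notes. Not given in the sources used here: counter, annotation, strand setting and the authors' test. The lowest mean count in the table was 25.0, which means that genes of low count are missing. All 47 members passed the filter used here, a mean of at least 0.5 FPKM over all pools.

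Tests used limma 3.58.1 (R 4.3.3; trend and robust moderation of the variance) on log2(FPKM + 1) of 12434 genes, no covariate, two-sided, called at an adjusted p under 0.05. The scale understates changes of low genes. Whole reads were recovered from FPKM and the mean count, with 100% of values whole within 0.05. edgeR 4.0.16 (quasi-likelihood) and DESeq2 1.42.0 were run on them as alternatives chosen after seeing the data, as were fits without a pair of Dux KO pools (1 and 2, or 3 and 4). Pairs of pools of a group differed by 13.8 to 117 chi-square per degree of freedom, so none looked like 1 library deposited again. Coordinates came from GENCODE (GRCm38), in which all 47 members were protein-coding genes and 17 shared exon bases with another gene.

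Members, role groups and the further list were chosen with earlier results of these data known, as were the motifs and the promoters printed. Setting members beside genes of at least 5 FPKM was also decided after seeing the data. Values in every pool were given for the importin alphas, Ran, the 8 called members of largest change in each direction and the 3 most abundant members, and examples for the 2 most abundant others of each role. Of the further list the 3 called genes of largest change in each direction were named, except for 1 that is not reported here, while the genes named as not passing were chosen after their values were seen.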

Additional observations from a re-analysis of the deposited data

Results flagged for a closer look

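In groups of 4 pools, the gap between an extreme pool and its nearest neighbour took more of the group's range than Dixon's 95% limit in 3 cases. They were found among 94 member groups and 20 groups of summed role levels, of which chance flags about 1 in 20. Kpnb1 stood at 13.0 FPKM in Dux KO replicate 4, with the other knockout pools at 8.32 to 8.84 FPKM. Nup50 stood at 24.9 FPKM in WT replicate 3, with the other WT pools at 19.6 to 20.2 FPKM. Xpo7 stood at 1.28 FPKM in WT replicate 3, with the other WT pools at 2.44 to 2.67 FPKM.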

How the results depend on the processing

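Members lower in Dux KO numbered 15, and 12 to 19 under other pseudocounts, filters, scalings, moderation, the authors' p-values, edgeR and DESeq2. In these alternatives 25.5 to 44.4% of the members tested were lower, beside 15.3 to 29.1% of all genes. All 15 were among the lower calls of edgeR and of DESeq2. Leaving out 1 pool gave 6 to 17 lower and 2 to 3 higher members, 12.8 to 36.2% lower, while 10.8 to 17.2% of all genes were lower in the same fits. Leaving out Dux KO replicates 1 and 2 together, chosen after seeing the data, gave 2 lower and 0 higher members, and 2 lower and 0 higher genes of the further list. With limma over all genes, that fit called 447 lower and 353 higher. In the further list, quantile normalization gave 8 lower genes (17.8%, beside 15.3% of all genes). Leaving out 1 pool gave 6 to 14 lower (13.3 to 31.1%, beside 10.8 to 17.2% of all genes) and 1 to 2 higher. Leaving out Dux KO replicates 3 and 4 gave 1 higher. The cause of these shifts was not tested, beyond that fits without pools had fewer samples. With the replicate number as a block, 23 members were lower, of which 14 were among the 15, and 3 were higher. These were 48.9% and 6.38% of the members, beside 20.8% and 17.2% of all genes in that fit. Nup107 passed there (limma adjusted p = 0.0348). Same-numbered pools correlated at -0.115, 0.328, -0.055 and 0.302 in their deviations, so the numbers were not taken to pair the pools. Over 38 named genes, 651 of the recomputed values kept their side of the threshold, 68 lost it, 36 gained it and 0 changed sign as called values. The least covered member had 61 reads in its lowest pool, and the effect of depth on the calls was not tested.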
